A study of Homo sapiens with 66 samples.

Results

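CCND1 encodes cyclin D1, the regulatory partner of the kinases CDK4 and CDK6 that carry a cell from G1 into S phase. This account covers every hypoxia-inducible factor (HIF) peak whose centre lay in a fixed 300-kb window on chromosome 11 (GRCh37, hg19), from 256 kb upstream to 44.1 kb downstream of the annotated CCND1 start. CCND1 (ENSG00000110092.4_6) runs on the plus strand from 69455924 to 69469242, and the window was fixed by position alone. Of 131425 peaks in 50 chromatin immunoprecipitation (ChIP-seq) peak lists, 39 were members. Overlapping members were merged into 9 sites, of 50316 merged sites in the genome. Of the 50 libraries, 24 had a member and 26 had none.

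HIF is a dimer of an oxygen-regulated α subunit, HIF-1α or HIF-2α, and the constitutive HIF-1β subunit. In oxygenated cells the von Hippel–Lindau protein (VHL) marks the α subunits for destruction, so they accumulate in low oxygen or when VHL is lost. The dimer recognises a short core sequence, the hypoxia response element (HRE), and often binds at enhancers far from the gene they serve. Cyclin D1 is a known HIF-2 target in VHL-defective kidney cancer, and the region upstream of the gene is known for HIF-bound enhancers in such cells.

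Each list came from 1 library, and the libraries formed 25 groups of 2. HKC-8, a renal tubular epithelial line, spent 6, 16 or 48 h in 0.5% oxygen or 6 h in 3% oxygen (the severity and duration experiment), and each of these 4 conditions had lists for all 3 subunits. The knockout experiment used unedited HKC-8 cells (WT), a line whose HIF-1α gene CRISPR had disrupted (HIF-1α KO) and another without functional HIF-2α (HIF-2α KO), all after 16 h at 0.5% oxygen. The KO lines had no list for the deleted subunit. The study describes each KO line as a single clone. RCC4, a renal carcinoma line without functional VHL, was grown in normoxia, and HepG2, a liver cancer line, spent 16 h at 0.5% oxygen. RCC4 differed from WT HKC-8 in line, VHL status and oxygen together, and these cannot be told apart. A peak list gives no expression of the HIF genes or of marker genes, so neither the deletions nor the identity of the lines could be checked in them.

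Each peak carries the caller's score, a scaled negative logarithm of its p-value, and the lowest score deposited was 50 (a p of 1e-05). Read depth is unknown from the lists, which held 237 to 8279 peaks, and a longer list has more chances to hold a weak peak. Scores were therefore set beside their rank in their own list, where the rank percentile is the rank as a percentage of the list and a low value is near the top. The list of 237 peaks was HIF-2α at 48 h, replicate 2. In HepG2, the libraries labelled HIF-1α replicate 2 and HIF-2α replicate 1 shared 50.05% of the shorter list, more than the 34.9% shared by the pair labelled HIF-1α and the 25.9% shared by the pair labelled HIF-2α. The replicate 2 pair of both labels shared 44.4%. In WT HKC-8 cells too a pair of different antibodies shared more (77.2%, lists of 1535 and 6749 peaks) than the HIF-1α pair (72.7%, lists of 1535 and 1913). A longer second list has more chances to overlap, so these shares are not on equal terms, and overlap alone does not separate the isoforms. The median distance from a peak to the nearest protein-coding start was 11.1 and 11.2 kb in these HepG2 lists (HIF-1α replicate 2 and HIF-2α replicate 1), against 36.2 and 31.7 kb in the other HepG2 lists (HIF-1α replicate 1 and HIF-2α replicate 2). In WT HKC-8 cells it was 11.9 and 15.9 kb for HIF-1α and 22.8 and 22.3 kb for HIF-2α, and in RCC4 it was 4.78 and 23.9 kb for HIF-1α and 26.2 and 35.4 kb for HIF-2α. The HepG2 libraries are called here by their labels. The study describes its replicates as independent experiments, and p-values measure the spread between these libraries.

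The members formed a short chain of distal sites and almost nothing at the gene. The site called in the most libraries lay 204 kb upstream of CCND1, at chr11:69250998-69254167, and had a peak in 14 libraries, 13 of them from HKC-8 cells and all with HIF-2α or HIF-1β antibody. The site with the best ranks lay 220 kb upstream, at chr11:69233420-69236177, and had a peak in 9 libraries, 5 of them RCC4. No peak covered the annotated start of CCND1, and the member nearest to it was centred 4.48 kb upstream.

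The bases that carry these calls are printed from the GRCh37 reference, plus strand. Capitals mark an HRE core, ACGTG or GCGTG, or an AP-1 motif, TGACTCA or TGAGTCA, each searched on both strands, so that CACGT is ACGTG on the minus strand. AP-1 was included because it is a common enhancer motif. The first stretch is the middle of a 673-bp segment of the 220-kb site that only RCC4 libraries covered, and the printed bases are chr11:69234474-69234773. The second is the other shared segment of that site, chr11:69235405-69235618. The third is the stretch covered by all 14 libraries at the 204-kb site, chr11:69251946-69252183.
220-kb site, RCC4 segment: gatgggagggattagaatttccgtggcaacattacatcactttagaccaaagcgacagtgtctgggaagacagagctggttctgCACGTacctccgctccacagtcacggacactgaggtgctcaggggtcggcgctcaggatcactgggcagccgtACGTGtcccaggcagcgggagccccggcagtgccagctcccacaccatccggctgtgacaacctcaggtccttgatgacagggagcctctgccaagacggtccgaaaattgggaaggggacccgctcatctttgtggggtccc
220-kb site, shared segment: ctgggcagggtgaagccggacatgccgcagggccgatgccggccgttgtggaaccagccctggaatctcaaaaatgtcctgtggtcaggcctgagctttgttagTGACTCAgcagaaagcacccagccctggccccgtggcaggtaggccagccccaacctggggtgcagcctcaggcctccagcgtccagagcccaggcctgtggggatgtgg
204-kb site, shared stretch: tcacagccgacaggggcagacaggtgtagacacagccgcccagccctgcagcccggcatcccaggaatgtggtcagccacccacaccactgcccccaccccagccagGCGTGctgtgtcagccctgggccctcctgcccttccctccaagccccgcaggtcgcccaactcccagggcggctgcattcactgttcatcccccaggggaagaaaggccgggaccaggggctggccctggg
The RCC4 segment held 2 HRE cores in the printed 300 bp and no AP-1 motif. The whole 220-kb site held 5 HRE cores, of which 3 lay outside both printed stretches. The shared segment of the same site held no HRE core and 1 AP-1 motif in 214 bp. The 204-kb stretch held 1 HRE core and no AP-1 motif in 238 bp. The whole 204-kb site held 12 HRE cores and no AP-1 motif. In windows of the same length at the centres of 50169 merged sites, an HRE core was found in 42.3% (300 bp), 35.3% (214 bp) and 37.5% (238 bp), and an AP-1 motif in 10.9%, 8.41% and 9.08%. A match is a description of these letters and not a site of binding.

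**Figure D1:**
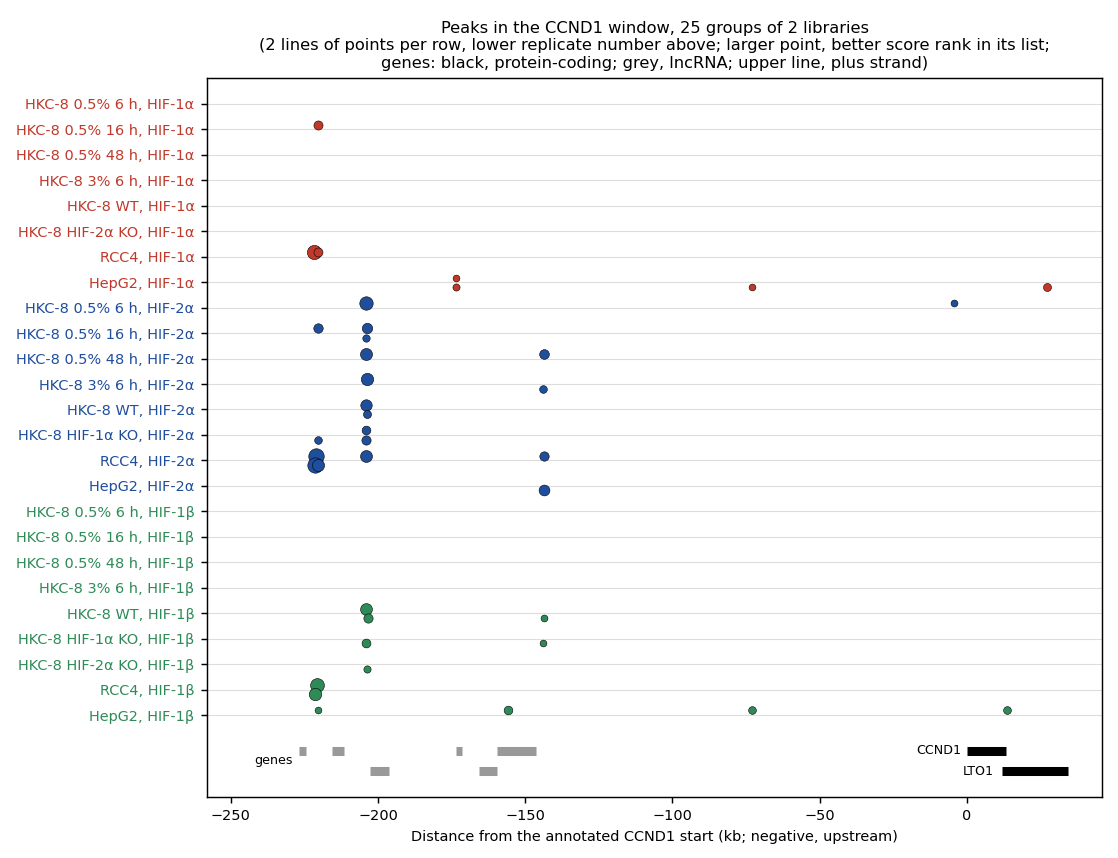
Peaks in the CCND1 window by group. The horizontal axis is the distance of the peak centre from the annotated CCND1 start in kb, each row is a group of 2 libraries (red HIF-1α, blue HIF-2α, green HIF-1β), and larger points have a better score rank in their own list. HIF-2α points line up 204 kb upstream in the HKC-8 rows, the largest points are the RCC4 points 220 kb upstream, and HIF-1α rows of HKC-8 hold a single point.

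The 220-kb site was the strongest HIF call in the window. It was called in both HIF-2α libraries of RCC4, as were 2.39% of all merged sites, and in both HIF-1β libraries, as were 0.892%. In RCC4, HIF-2α replicate 1 gave it a score of 2098.24, rank 15 of 4317 (0.347%). HIF-2α replicate 2 gave it a score of 1292.67, rank 24 of 2990 (0.803%). These ranks placed it in the upper 1% of their lists. HIF-1β, the common partner, was called there in both RCC4 libraries, with a score of 296.11 at rank 86 of 911 (9.44%) and a score of 117.80 at rank 230 of 1305 (17.6%). HIF-1α was called in RCC4 replicate 1 only, with a score of 521.83 at rank 395 of 5680 (6.95%), and not among the 2120 peaks of replicate 2. The site lies between genes. Its nearest annotated transcript start, that of the lncRNA LINC02953, is at 4.97 kb, and its nearest protein-coding start, that of MYEOV, at 79.2 kb.

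Sites with both HIF-2α and both HIF-1β libraries of RCC4 numbered 279, or 0.554% of all merged sites, and HIF-1α was called in exactly 1 RCC4 library at 16.1% of them and in both at 83.2%. Sites in the upper 1% of both RCC4 HIF-2α lists numbered 25, or 0.0497% of all merged sites. HIF-1α was called in both RCC4 libraries at 92.0% of these 25, and HIF-1β in both at 92.0%. A HIF-2α peak in at least 1 WT HKC-8 library was found at 24 of the 25 (96.0%), and the 220-kb CCND1 site was the exception. That holds for the WT libraries of the knockout experiment only. In other HKC-8 libraries, HIF-2α was called at the 220-kb site in 16 h replicate 1 (score 62.27) and HIF-1α KO replicate 2 (97.82). The comparison over the 25 sites was chosen after the values were seen and is a description of these lists.

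Peaks outside RCC4 fell on 1 end of the 220-kb site. The segment from 69234287 to 69234959 was covered by 5 RCC4 libraries (HIF-1α replicate 1, both HIF-2α and both HIF-1β) and by no HKC-8 or HepG2 library. The segment from 69235405 to 69235618 was covered by 8 libraries, 4 from RCC4 and 4 from the other lines. Of the 5 HRE cores of the site, 3 were covered by RCC4 peaks alone, and the other 2, at 69235856 and 69235894 beyond the shared segment, were also covered by HIF-2α in HIF-1α KO replicate 2 and by HIF-1β in HepG2 replicate 1. In RCC4, HIF-1α replicate 1 and HIF-2α replicate 2 had a separate second peak over this segment, with scores of 98.77 (rank 2483 of 5680) and 141.19 (rank 584 of 2990).

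The 4 other calls were weak. In HKC-8 at 0.5% oxygen for 16 h, HIF-1α replicate 1 had a score of 62.74 (42.6%) and HIF-2α replicate 1 a score of 62.27 (39.6%), and neither was called in replicate 2. HIF-2α in HIF-1α KO replicate 2 had a score of 97.82 (59.1%). HIF-1β in HepG2 replicate 1 had a score of 52.83 (90.0%). No WT HKC-8 library had a peak at either segment. With peaks of a score of at least 100 only, 5 of the 9 libraries kept a peak at the site.

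**Figure D2:**
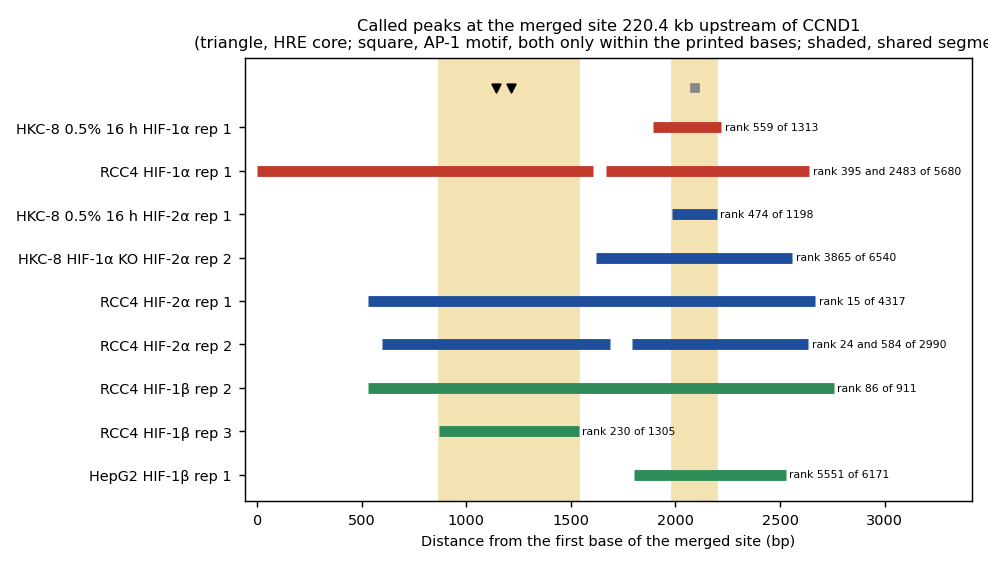
Called peaks across the 220-kb site. The horizontal axis is the distance in bp from the first base of the merged site, each bar is a called peak with its score rank in its list, and shading marks the 2 segments described in the text. Only RCC4 bars cover the left segment, which holds 2 of the 5 HRE cores of the site, while HKC-8 and HepG2 bars lie over the right segment with the AP-1 motif.

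The 204-kb site was the HIF-2α site of HKC-8 cells. HIF-2α was called there in 9 of 12 HKC-8 libraries, HIF-1α in 0 of 12, and HepG2 had no peak in any of 6 libraries. Sites with HIF-2α in at least 9 HKC-8 libraries numbered 212, or 0.421% of all merged sites, and 20.3% of those 212 had no HIF-1α peak in any HKC-8 library. No HepG2 peak was found at 51.4% of the 212, so its absence at the CCND1 site was common among such sites. Sites called in at least 14 libraries were 2.78% of all merged sites. The counts at this site were known when it was singled out, so they are given without a test. Its centre lies between genes, and its edge overlaps the lncRNA LINC02952.

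In the severity and duration experiment the HIF-2α scores at the 204-kb site were low and close together. After 6 h in 0.5% oxygen, replicate 1 had a score of 87.52 (11.9%) and replicate 2 had no peak. After 16 h the scores were 67.04 (31.6%) and 60.35 (64.1%), and 0.664% of all merged sites were called in both of these libraries. After 48 h, replicate 1 had a score of 88.24 (20.2%) and replicate 2, the list of 237 peaks, had none. In 3% oxygen for 6 h, replicate 1 had a score of 72.66 (18.1%) and replicate 2 had no peak. Only the 16-h group thus called it in both libraries, and the replicates of each other group differed by a call. HIF-1β was called there in 0 of 8 libraries of this experiment, whose HIF-1β lists held 626 to 1793 peaks. Sites with HIF-2α in at least 5 of the 8 HIF-2α libraries of this experiment, as here, numbered 232, and 44 of them had no HIF-1β peak in it.

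In the knockout experiment, with longer lists, the 204-kb site was called more often. In WT cells HIF-2α had scores of 210.88 (rank 1099 of 4537, 24.2%) and 112.47 (rank 3636 of 6749, 53.9%), and 7.46% of all merged sites were called in both of these libraries. HIF-1β in WT cells had scores of 280.21 (rank 1332 of 6199, 21.5%) and 162.43 (rank 3398 of 8279, 41.0%). HIF-1α in WT cells had no peak there in lists of 1913 and 1535 peaks. Sites with both HIF-2α and both HIF-1β libraries of WT cells numbered 3160 (6.28% of all merged sites), and 56.1% of them had no WT HIF-1α peak, so the absence of HIF-1α in WT cells was common among such sites.

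HIF-2α was called at the 204-kb site in both libraries of HIF-1α KO cells, as were 8.44% of all merged sites. Its scores were 134.66 (rank 2411 of 5228, 46.1%) and 152.68 (rank 2696 of 6540, 41.2%). These fell between the scores of the WT libraries. HIF-2α was called in both HIF-1α KO libraries at 76.5% of the 3160 WT sites.

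HIF-1β at the 204-kb site was called in 1 of 2 libraries of either KO line. In HIF-1α KO cells, replicate 2 had a score of 129.85 (45.0%) and replicate 1 had no peak. In HIF-2α KO cells, replicate 2 had a score of 69.45 (67.8%) and replicate 1 had no peak. The score in HIF-2α KO cells was the lowest of the 4 HIF-1β scores of this experiment at the site. HIF-1β was called in at least 1 HIF-1α KO library at 82.8% and in both at 63.7% of the 3160 WT sites, and in at least 1 HIF-2α KO library at 51.0% and in both at 30.7%. The HIF-1β lists held 6199 and 8279 peaks in WT, against 3387 and 5786 without HIF-1α and 2550 and 2085 without HIF-2α, and the part of list length in these calls was not tested.

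RCC4 called the 204-kb site in 1 library, HIF-2α replicate 1, with a score of 169.42 (rank 907 of 4317, 21.0%). A HIF-2α peak in at least 1 RCC4 library was found at 38.2% of the 3160 WT sites, and in both at 21.1%. In that RCC4 library the 220-kb site ranked far above the 204-kb site, at 0.347% against 21.0%. The other libraries with both sites had the reverse order. HIF-2α at 16 h replicate 1 ranked the 220-kb site at 39.6% and the 204-kb site at 31.6%, and HIF-2α in HIF-1α KO replicate 2 ranked them at 59.1% and 41.2%. Their peaks at the 220-kb site did not reach the segment that only RCC4 covered, whereas the RCC4 peak spanned both segments. The orders therefore do not compare the same bases.

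**Figure D3:**
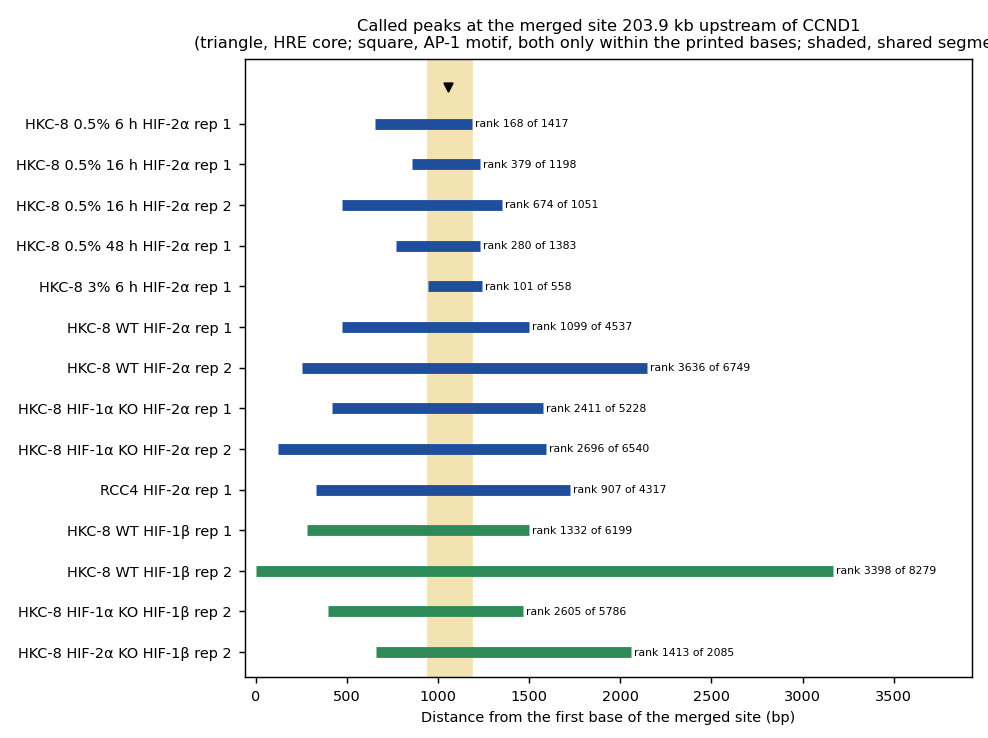
Called peaks across the 204-kb site. The horizontal axis is the distance in bp from the first base of the merged site, each bar is a called peak with its score rank in its list, and shading marks the 238 bp covered by all 14 libraries. The bars are HIF-2α (blue) or HIF-1β (green), with 1 RCC4 bar and no HIF-1α bar.

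The other 7 sites were weaker, and 1 of them was called in a full pair. That site, 173 kb upstream at chr11:69281960-69283027, was called in the HepG2 libraries labelled HIF-1α, with scores of 51.94 (88.2%) in replicate 1 and 63.57 in replicate 2, and in no other library. Of all merged sites, 2.38% were called in both of these libraries. It lies in the lncRNA ENSG00000261347, and its HIF-1α replicate 2 library is 1 of the HepG2 pair with the high overlap described above. Without that library, its call is the replicate 1 peak alone. In median distance to a coding start, however, it was replicate 2 (11.1 kb) and not replicate 1 (36.2 kb) that lay near the WT HKC-8 HIF-1α lists. The site at chr11:69311446-69313064, 144 kb upstream and between genes, had a peak in 6 libraries of all 3 lines but in no full pair. Its scores ran from 54.72 (HIF-1β in HIF-1α KO replicate 2) to 106.91 (the HepG2 library labelled HIF-2α replicate 2). The 104 bp common to its peaks held neither motif, and an HRE core was found in 21.3% of windows of that length. The site at chr11:69382363-69383539, 73.0 kb upstream, had a peak in HepG2 libraries labelled HIF-1α replicate 2 (50.07) and HIF-1β replicate 1 (70.84).

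The last 4 sites were each called in 1 library. HIF-2α at 6 h replicate 1 had the only peak near the CCND1 start, 4.48 kb upstream, with a score of 52.21 (rank 1107 of 1417, 78.1%). HepG2 libraries had the other 3, of which 1 overlapped the 3′ end of CCND1 and its neighbour LTO1 (HIF-1β replicate 1, 71.85). Another lay inside LTO1, away from its outermost start and 0.096 kb from an internal transcript start (labelled HIF-1α replicate 2, 79.62). The third lay in LINC01488 (HIF-1β replicate 1, 87.17). No site downstream of the CCND1 start was called outside HepG2.

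To compare the isoforms over the whole window, each library was given its number of sites and the rank percentile of its best member, with 100 where it had none. The comparison used the 7 conditions with both isoforms and permuted labels within a condition. HIF-2α libraries called 1.14 ± 0.86 sites and HIF-1α libraries 0.43 ± 0.85 (mean ± SD, n = 14 each). The difference of 0.71 sites did not pass the test (exact permutation p = 0.0746, two-sided, adjusted p = 0.485 over 13 tests). HIF-2α called more sites in 6 of the 7 conditions, and HepG2 was the exception, with means of 0.5 for the libraries labelled HIF-2α and 2.0 for those labelled HIF-1α. Without HepG2 the difference was 1.08 sites (exact permutation p = 0.00154, adjusted p = 0.0167). In lists cut to equal length it was 0.29 (exact permutation p = 0.0833, adjusted p = 0.542). Without RCC4 it was 0.58 (exact permutation p = 0.18).

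The best rank was better for HIF-2α in all 7 conditions. Its mean percentile was 43.7 ± 36.1 in HIF-2α libraries and 85.2 ± 29.2 in HIF-1α libraries (SD, n = 14 each), a difference of −41.4 (exact permutation p = 0.00257, two-sided, adjusted p = 0.0334). RCC4 had the best ranks, with 0.347% and 0.803% for HIF-2α against 6.95% and no peak for HIF-1α. In HepG2 the difference was −7.12. Without HepG2 it was −47.1 over the other conditions (adjusted p = 0.0201, exact permutation test). The call did not hold when most single libraries were removed. It was lost without any 1 of 19 of the 28 libraries, with differences from −41.5 to −34.8 and adjusted exact permutation p from 0.0502 to 0.129, and it held without any 1 of the other 9, which were replicate 2 of HIF-2α at 6, 16 and 48 h, in 3% oxygen and in WT cells, replicate 1 of HIF-1α at 16 h and in RCC4, and in HepG2 the libraries labelled HIF-2α replicate 1 and HIF-1α replicate 2. Without either HIF-1α library at 6 h, at 48 h, in 3% oxygen or in WT cells, the difference stayed at −41.4. The call was thus lost there without a smaller difference. Each single removal left 139968 arrangements in place of 279936, also where the call held. The cause of the loss was not tested. With peaks of a score of at least 100 only, the difference was −12.9 (adjusted p = 0.361, exact permutation test), and in the upper 50% of each list it was −30.5 (adjusted p = 0.113, exact permutation test). With RCC4 left out the difference was −39.5 (adjusted p = 0.0802, exact permutation test), and in lists cut to equal length it was −19.3 (adjusted p = 0.542, exact permutation test).

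**Figure D4:**
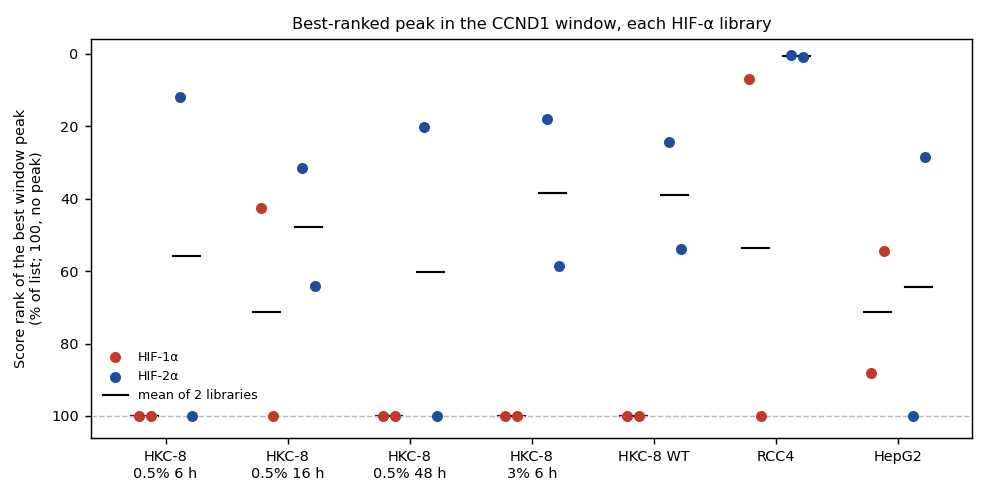
Best-ranked window peak of each HIF-α library. The vertical axis is the score rank of the best member as a percentage of the list, with the top of the list at the top and 100 for libraries without a member, points are single libraries (red HIF-1α, blue HIF-2α) and lines are means of 2. Both RCC4 HIF-2α points lie at the top, and 10 of 14 HIF-1α points lie at 100.

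Oxygen and time did not give differences that passed the test, but these tests could hardly pass. Each set 2 against 2 libraries for each of 3 antibodies, so the smallest p an exact permutation test could give was 0.00926. With the other p-values as they were, 1 such p would not pass after adjustment over 13 tests. Ties between libraries without a site raise it further, so the p-values below do not show that oxygen or time had no effect. With labels permuted within antibody, libraries in 3% and in 0.5% oxygen for 6 h called 0.33 ± 0.52 and 0.33 ± 0.82 sites (SD, n = 6 each, exact permutation p = 1.0, two-sided). Libraries at 16 h called 0.67 ± 0.82 sites and those at 6 h 0.33 ± 0.82 (n = 6 each, exact permutation p = 0.667, adjusted p = 1.0). Libraries at 48 h called 0.33 ± 0.82, the same mean as at 6 h. In all these conditions the members were HIF-2α calls, apart from 1 HIF-1α peak at 16 h. WT cells of the knockout experiment called 0.83 ± 0.75 sites and the 16-h libraries of the severity and duration experiment 0.67 ± 0.82 (n = 6 each, exact permutation p = 1.0). That small difference reversed to −0.44 when sites were counted per 1000 peaks in the list.

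Differences between lines in the number of sites did not pass the test. The design was again 2 against 2 libraries for each of 3 antibodies, with a smallest exact permutation p of 0.00926. A single such p would not pass after adjustment over 13 tests with the others as they were, so the lines are not shown to be alike. RCC4 libraries called 1.17 ± 0.98 sites against 0.83 ± 0.75 in WT HKC-8 cells (n = 6 each, exact permutation p = 0.75, adjusted p = 1.0). HepG2 libraries called 1.5 ± 1.64 (n = 6, exact permutation p = 0.528, adjusted p = 1.0), and this excess over WT HKC-8 reversed to −0.5 sites once peaks scoring under 100 were left out. With HIF-1α replicate 2 and HIF-2α replicate 1 of HepG2 left out, the excess was 0.5 sites (exact permutation p = 0.556, adjusted p = 1.0). Of the 9 sites of the window, 3 were called in both libraries of a group, and none of these in more than 1 line. Over the genome this was usual, since 19.6% of the 9336 sites called in both libraries of a group in at least 1 line were so called in more than 1.

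Between WT and KO lines each group had 2 libraries, so the smallest p an exact permutation test can give is 0.333 and no comparison could pass. HIF-1β libraries of WT cells called 1.5 ± 0.71 sites (SD, n = 2). Those of the KO lines called 1.0 ± 1.4 without HIF-1α and 0.5 ± 0.71 without HIF-2α. HIF-2α libraries called 1.0 ± 0 in WT and 1.5 ± 0.71 in HIF-1α KO cells. HIF-1α libraries called none in WT or in HIF-2α KO cells.

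CCND1 was next set among 23 genes of the G1 to S transition. A gene counted as bound where a site called in both libraries of a group lay from 250 kb upstream to 50 kb downstream of its start, a window wide enough that 32.9% of 20136 protein-coding genes were bound by HIF-2α in WT HKC-8 cells. In those cells HIF-2α bound 9 of the 23 (39.1%), namely CCND1, CDK6 (a cyclin D partner kinase), the CDK inhibitor genes CDKN1A, CDKN1B, CDKN2C and CDKN2D, the transcription factor genes E2F1 and E2F2, and CDC25A (a phosphatase that activates CDKs). HIF-1α bound 6 of the 23 in WT cells, where 16.9% of all genes were bound, and these included CDK4 and 5 of the HIF-2α set but not CCND1. HIF-1β bound 9 of the 23 in WT cells (45.4% of all genes), among them CCND1.

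In RCC4 the list was bound less widely, as were all genes. HIF-2α bound CCND1, CDKN1A and CDKN2D, which is 3 of 23, beside 13.2% of all genes. HIF-1β bound CCND1 and CDKN2D (8.70%, beside 9.12%), and HIF-1α bound CDKN1B alone, where 3020 of 20136 genes were bound. HIF-2α thus had a site called in both libraries within the CCND1 window in WT HKC-8 cells (204 kb) and in RCC4 (220 kb), and RCC4 replicate 1 also called the 204-kb site. Such sites in both lines were found for 10.3% of all genes, and 14.8% of those 2067 genes, CCND1 included, had no site called in both libraries of both lines. In HIF-1α KO cells HIF-2α bound 10 of 23 (43.5%, beside 38.3%), CCND1 included, and HIF-1β bound 5 (21.7%, beside 28.7%), without CCND1. In HIF-2α KO cells HIF-1α bound 4 (17.4%, beside 13.3%) and HIF-1β 7 (30.4%, beside 23.7%), neither with CCND1.

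Among the other D-type cyclins, CCND2 was bound in none of the 13 groups examined, and CCND3 by HIF-2α in HIF-1α KO cells and HIF-1β in HepG2. In HepG2, libraries labelled HIF-1α bound 4 of the 23 (17.4%, beside 17.3%), CCND1 among them through the 173-kb site. Those labelled HIF-2α bound 2 (8.70%, beside 18.6%), and HIF-1β bound 11 (47.8%, beside 36.3%), neither with CCND1. With HIF-1α replicate 2 and HIF-2α replicate 1 left out, the remaining library labelled HIF-1α had a peak at 8 of the 23 (34.8%, beside 30.0%) and that labelled HIF-2α at 9 (39.1%, beside 36.5%), both with CCND1, at the 173-kb and the 144-kb site. In median distance to a coding start, the HIF-1α library left out (11.1 kb) lay nearer the WT HKC-8 HIF-1α lists than the one kept (36.2 kb). This is therefore not a cleaner comparison of the isoforms. The shares of the list stood on both sides of those of all genes, and a call within so wide a window does not tie a site to a gene.

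The sites elsewhere whose calls were most like those of the 204-kb site over the 50 libraries were sought by the Jaccard index, the share of libraries with both sites among libraries with either. The closest lay at chr10:99333943-99335581, 2.02 kb from the start of ANKRD2, with 14 shared libraries and an index of 0.875. It was called in all 14 libraries of the CCND1 site and in 2 more. The next lay at chr16:67004291-67005859, 3.74 kb from CES3 (0.765), and at chr19:41728977-41730494, 3.07 kb from AXL, a receptor tyrosine kinase gene (0.750). These values were ranked over all sites called in at least 5 libraries and describe these lists.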

How the data were processed

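ChIP-seq peak lists of 50 libraries were used, and the 16 input samples have no list of their own here. Per the study's methods and the labels, the authors trimmed reads with Trim Galore 0.3.3, aligned them to GRCh37 with BWA 0.7.5a-r405, removed reads of low mapping quality (SAMtools 0.1.19) and in blacklisted regions (BEDTools 2.17.0), marked duplicates (Picard 1.106) and called peaks per library with MACS against control. The MACS version is not given in the sources used here. The deposited value of a peak is the MACS score, read as a scaled negative logarithm of its p-value, and no replicates were pooled. The study also called peaks with T-PIC and filtered them on read counts against background regions, and whether the deposited lists were made before or after those steps is not given in the sources used here. Peaks with their centre in the window were merged where they overlapped by at least 1 bp. Distances run from site centres to starts in GENCODE 44 on GRCh37. For sites of the window, the nearest start is that of any annotated transcript, which can lie inside a gene.

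Groups came from the labels. Sites called in both libraries of a group were named by position. Exact permutation tests, two-sided, permuted labels within condition or antibody, and Benjamini-Hochberg adjustment ran over the 13 p-values with a threshold of 0.05. The test code was checked on simulated data. The members, lists and tests were chosen with earlier results of these data known. Alternatives were an overlap of 50%, 200-bp windows at peak centres, a minimum score of 100, the upper 50% of each list, lists of equal length, sites per 1000 peaks, a replicate block, and leaving out libraries, replicate numbers, RCC4 or HepG2. Those for merged sites and for libraries per site, leaving out RCC4 with HepG2, and leaving out the HepG2 libraries labelled HIF-1α replicate 2 and HIF-2α replicate 1 together, were chosen after seeing the data. Python 3.11.15, pandas 2.3.3 and numpy 2.4.6 were used.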

Additional observations from a re-analysis of the deposited data

How the results depend on the processing

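For the number of sites, HIF-2α minus HIF-1α became a call at 0.59 sites per 1000 peaks (adjusted p = 0.0226, exact permutation test), at 1.08 with HepG2 left out and at 1.0 with RCC4 and HepG2 left out. It did not pass at 0.29 in lists of equal length (adjusted p = 0.542, exact permutation test). Nor did it at 0.36 with a score of at least 100 (adjusted p = 0.361) or 0.71 in the upper 50% (adjusted p = 0.169, exact permutation tests). Without RCC4 it was 0.58 (exact permutation p = 0.18). For the best rank, the call was lost at −12.9 with a score of at least 100, −30.5 in the upper 50% of each list, −19.3 in lists of equal length, −39.5 without RCC4 and −46.0 without RCC4 and HepG2. The cause was not tested. Over removals of a library or a replicate number, the difference in sites ranged from 0.29 to 1.14 and that in rank from −48.1 to −34.8 (adjusted p from 0.00669 to 0.485, exact permutation test). Some differences that passed no test reversed. WT minus 16 h became −0.44 per 1000 peaks and −0.67 in lists of equal length, and ranged from −0.33 to 0.67 over removals. HepG2 minus WT became −0.5 with a score of at least 100, and −0.17 in the upper 50% and in lists of equal length. RCC4 minus WT ranged from −0.33 to 1.0 over removals. For HIF-1β, HIF-2α KO minus WT became 0.038 per 1000 peaks. HIF-2α KO minus HIF-1α KO became 0.067 per 1000 peaks and 0.5 in lists of equal length, and ranged from −1.5 to 0.5 over removals, as did HIF-1α KO minus WT. The window held 3 merged sites with a score of at least 100 and 4 in the upper 50%, against 9 in all.

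The labels do not say that a replicate number marks a shared batch. Over merged sites, the differences between replicates 1 and 2 of HIF-1α and of HIF-2α correlated from −0.091 to 0.064 within the 7 conditions. With the replicate block the differences between isoforms stayed at 0.71 sites (adjusted p = 0.409) and −41.4 in rank (adjusted p = 0.0254, exact permutation test), and no call changed with the block.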
